A study of Mus musculus with 4 samples.

Results

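Open chromatin was examined around 9 genes that beige fat can use to burn energy without uncoupling protein 1. They encode the enzymes that make creatine (Gatm, Gamt), its importer (Slc6a8), creatine kinases (Ckb, Ckmt1, Ckmt2), an alkaline phosphatase (Alpl), the calcium pump SERCA2 (Atp2a2) and a calcium release channel (Ryr2). The genes were taken as a list, and every ATAC-seq peak with its summit within 50 kb of any transcription start site (TSS) of one of them was kept, in mm9 coordinates. This gave 82 peaks at D0 and 55 at D8 from the WT libraries and 77 and 58 from the HY libraries. Peaks that overlapped by at least 1 bp across the 4 libraries were joined, which left 109 sites near the 9 genes, of 75574 sites near any of 22225 protein-coding genes and 100904 sites in all.

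The libraries came from im-scWAT cells, cultures of the stromal vascular fraction of mouse subcutaneous fat that had been immortalised with SV40 large T antigen. WT cells were Jmjd1a +/+, and HY cells came from Jmjd1a HY/HY mice, in which a histidine-to-tyrosine change in the Jumonji domain abolishes the histone demethylase activity of JMJD1A in every tissue. The donors were 5 weeks old. Cells were taken when confluent and undifferentiated (D0), or after 8 days (D8), of which the first 2 were in indomethacin, dexamethasone, 3-isobutyl-1-methylxanthine, rosiglitazone, insulin and T3 and the other 6 in insulin, T3 and rosiglitazone, a protocol for beige adipocytes. Each genotype is 1 culture at each day, with 1 library per group, so no group has a replicate, no test was run, and every comparison below is between libraries and not between conditions.

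The WT lists held 71523 peaks at D0 and 41228 at D8, and the HY lists 77994 and 48964. With the depth of WT D0 set to 1, WT D8 stood at 0.806, HY D0 at 1.07 and HY D8 at 0.750, so the D8 libraries were the shallower ones. Promoters of the 7 adipocyte markers had a peak for 3 genes at D0 and 7 at D8 in both genotypes. Those of the 6 preadipocyte markers had one for 6 and 4 genes at D0 in WT and HY, and for 1 at D8. Of the 6 beige markers, 1 and 2 had a promoter peak at D0 in WT and HY and 3 at D8 in both. The promoter of Ucp1 had none in any library, although 3 sites within 50 kb of it opened in both genotypes. Immune marker promoters had a peak for 0 of 4 genes in each library, and those of the 8 muscle markers for 1 at most. Of the 4 endothelial markers, 3 and 2 had a promoter peak at D0 in WT and HY, and 0 and 1 at D8. The part of other cell types in the member sites was not tested. Chromosome Y held 7 and 6 peaks in the HY libraries and 1 in each WT library, so sex or loss of a chromosome and the Jmjd1a allele cannot be told apart between these cultures.

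In the creatine cycle of thermogenic fat, creatine kinase uses mitochondrial ATP to make phosphocreatine, a phosphatase splits it again without work being done, and the released creatine goes back to the kinase. GATM and GAMT carry out the successive steps of creatine synthesis and SLC6A8 takes creatine up from the blood. In calcium cycling, SERCA2 pumps calcium into the endoplasmic reticulum at the cost of ATP and release channels such as RYR2 let it out again. Both cycles turn ATP into heat, and the muscle members of these families (Ckmt2, Ryr2) are best known from heart and skeletal muscle. ATAC-seq reports where the Tn5 transposase reaches DNA. It shows accessible sites and not how much a gene is transcribed.

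A site was called opened in a genotype when it had a peak at D8 and none at D0, and closed when the reverse held. Of the sites with a D8 peak, 17 of 51 (33.3%, exact 95% interval 20.8 to 47.9%) had opened in WT, where 23.7% of the sites near all protein-coding genes had. In HY, 19 of 56 (33.9%, 21.8 to 47.8%) had opened against a background of 24.9%. Both intervals include the background share. Of the sites with a D0 peak, 44 of 78 in WT (56.4%, background 55.2%) and 39 of 76 in HY (51.3%, background 52.5%) had closed. The D0 lists were longer, and with lists of equal length the closed shares were 37.5% in WT and 35.7% in HY. The opened shares were then 41.2% and 47.1%, and background shares were not recomputed for that setting. Intervals cover counting error alone.

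Both genotypes gave the same class at 67 of the 109 sites. A peak stood in all 4 libraries at 29 sites (26.6%, against 28.0% of the sites near all genes), 25 closed in both genotypes (22.9% against 22.7%) and 13 opened in both (11.9% against 6.10%). The 13 opened sites lay near 6 of the 9 genes, namely Gamt (4), Alpl (3), Atp2a2 (3), Ckb (1), Ckmt1 (1) and Gatm (1), where 27.9% of protein-coding genes had such a site. The windows of the members held more sites, with a median of 14 per gene against 7 for all protein-coding genes, and with summits within 10 kb, or with -log10 q of 5 or more asked of the D8 lists, 3 of the 9 genes had an opened site. None lay near Slc6a8, Ckmt2 or Ryr2. For 6 of the 13, the 3 at Alpl and the 3 at Atp2a2, the nearest TSS of any protein-coding gene was that of the member itself. The others lay nearer to a neighbour, which for all 4 Gamt sites was Dazap1. The plot of pileup by distance shows these sites for each gene, and the bar chart of site classes gives their counts.

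**Figure D1:**
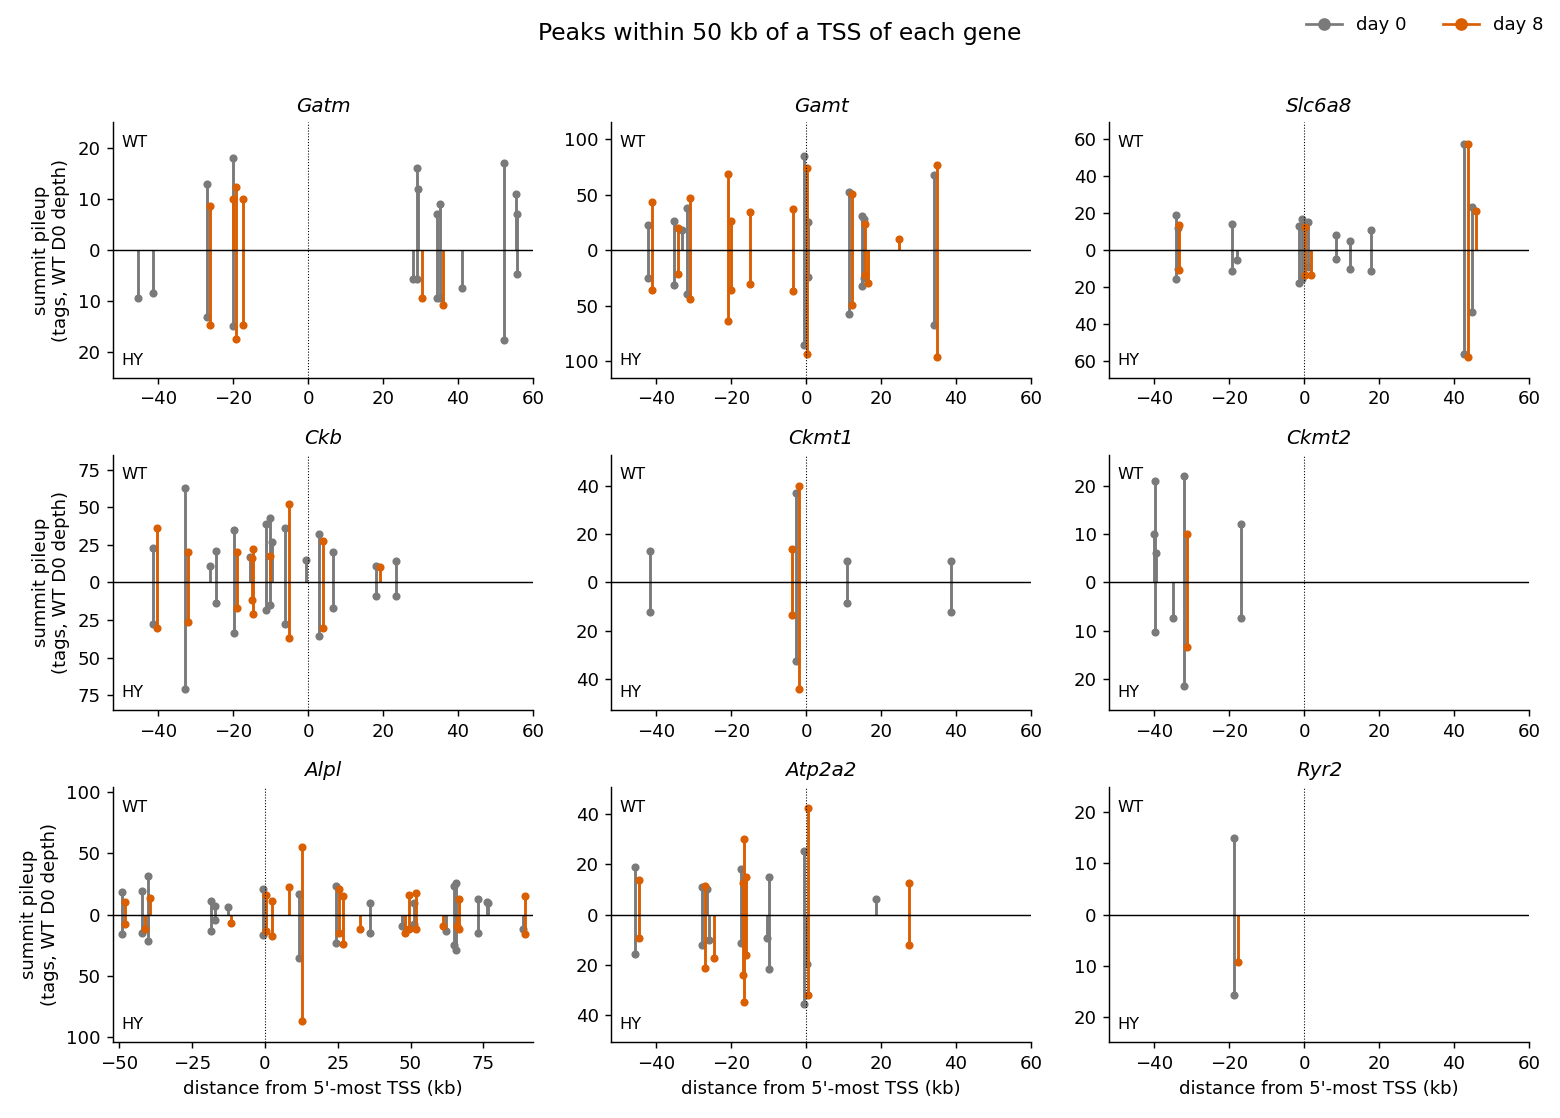
Summit pileup (tags scaled to the depth of WT D0; y) of each site against its distance from the 5′-most TSS of the gene (kb; x, positive downstream), with WT drawn upward and HY downward, D0 in grey and D8 in orange, and the days set apart by a small offset. A lone orange stem in both directions is a site that opened in both genotypes, as at -21.2 kb of Gamt, and Slc6a8, Ckmt2 and Ryr2 have none.

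**Figure D2:**
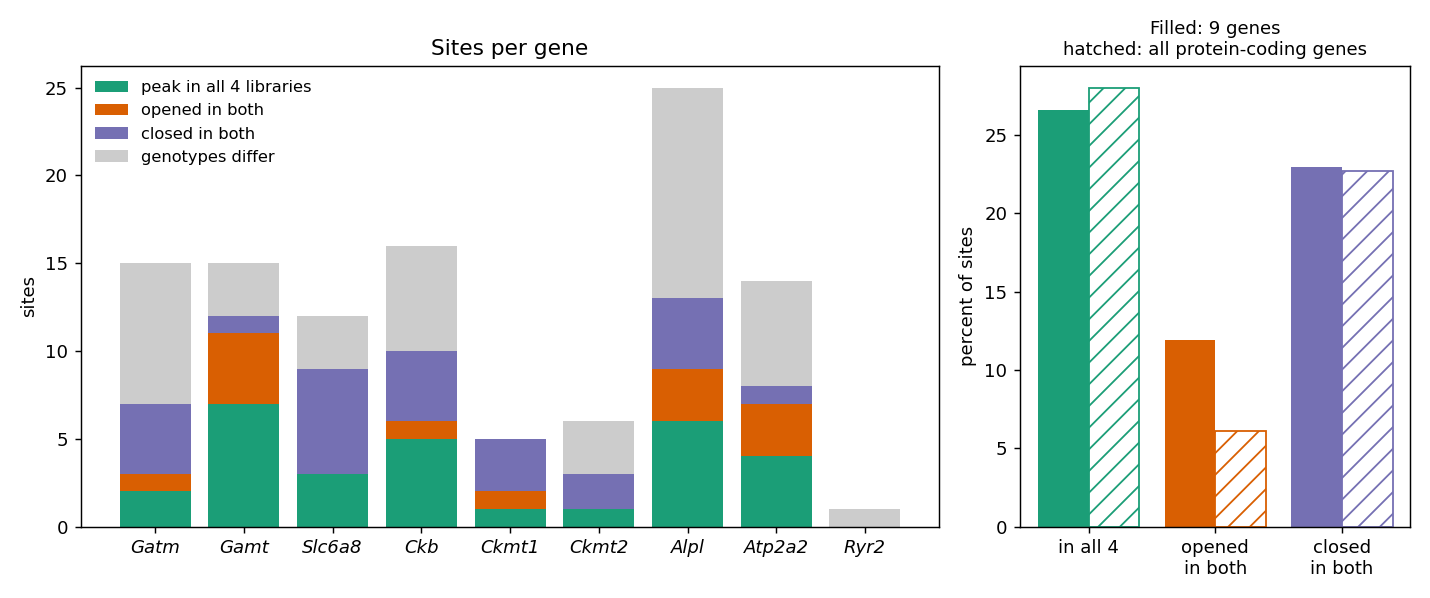
Number of sites per gene by class (left; "genotypes differ" are sites whose class was not the same in WT and HY) and the percent of sites in 3 classes (right), filled for the 109 sites of the 9 genes and hatched for the sites near all protein-coding genes. Sites opened in both genotypes make up 11.9% near the 9 genes (13 of 109, of which 4 lie nearest to Dazap1) and 6.10% near all genes. The other classes are close to the background.

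The sequence at the WT D8 summit is printed below for 1 opened site of each of the 6 genes, the one whose lower D8 pileup of the 2 genotypes was the highest, to show what DNA became accessible near them. The intronic Alpl site at +12.3 kb, picked after its values were seen, is added because its ratio between the days was the highest of the 9 genes in WT. Each stretch is 101 bp of the mm9 forward strand, 5′ to 3′, with capitals for motif matches.
Alpl +12.3 kb, chr4:137339941-137340041: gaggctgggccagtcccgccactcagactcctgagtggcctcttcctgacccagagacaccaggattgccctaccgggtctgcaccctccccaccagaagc
Alpl +26.5 kb, chr4:137325740-137325840: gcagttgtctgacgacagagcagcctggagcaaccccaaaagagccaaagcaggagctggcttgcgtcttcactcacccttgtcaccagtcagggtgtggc
Gamt -21.2 kb, chr10:79744868-79744968: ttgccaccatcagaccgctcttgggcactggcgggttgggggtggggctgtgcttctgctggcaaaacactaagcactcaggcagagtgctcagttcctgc
Atp2a2 -16.4 kb, chr5:122968574-122968674: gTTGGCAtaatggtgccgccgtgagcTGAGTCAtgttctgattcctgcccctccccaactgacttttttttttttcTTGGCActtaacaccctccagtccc
Gatm -17.9 kb, chr2:122454913-122455013: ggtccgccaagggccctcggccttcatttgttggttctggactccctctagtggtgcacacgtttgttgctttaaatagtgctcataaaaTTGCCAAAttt
Ckb -15.5 kb, chr12:112925983-112926083: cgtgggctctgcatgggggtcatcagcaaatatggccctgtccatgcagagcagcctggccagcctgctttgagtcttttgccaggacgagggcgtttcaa
Ckmt1 -4.3 kb, chr2:121179060-121179160: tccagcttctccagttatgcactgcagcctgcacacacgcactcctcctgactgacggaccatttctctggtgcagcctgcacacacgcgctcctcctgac

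Motifs were searched on both strands in the 201 bp around each summit. C/EBP matches (TTGCNNAA) stood in 4 of the 13 opened sites, near Ckmt1, Gatm, Gamt (-15.5 kb) and Atp2a2 (+27.0 kb), and in 26.1% of the 4610 sites near protein-coding genes that opened in both genotypes. Matches to the NFI hexamer (TTGGCA) stood in 3 of 13 (27.0% of all such sites) and EBF matches (CCCNNGGG) in 2 of 13 (13.4%), at Gamt -21.2 kb and Ckb -15.5 kb. An AP-1 match (TGANTCA) stood in 1 of 13 (7.01%), at Atp2a2 -16.4 kb. The sequences TTGCGCAA (a form of the C/EBP motif, 0.239%), TCAAGGTCA (ERR, 0.239%) and 2 copies of AGGTCA repeated 1 base apart with up to 2 mismatches (7.74%) were found in 0 of 13. In the printed stretches the capitals mark both NFI hexamers and the AP-1 match of Atp2a2 -16.4 kb and, in Gatm -17.9 kb, a C/EBP match that overlaps an NFI hexamer on the other strand. Of the 25 sites that closed in both genotypes, 5 held an AP-1 match, as did 29.9% of all such sites, and 6 held an EBF match, as did 8.05%. The Ckmt1 stretch holds a run of 18 bases 2 times.

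For sites with a peak at both days or in both genotypes, the pileup at the summit (how many extended tags overlap there) was divided by the depth of its library, and a ratio of 2 or more, or 0.5 or less, was called a change. Between the days the median ratio D8 over D0 was 0.889 in WT (order-statistic interval 0.719 to 1.07, 34 sites) and 1.03 in HY (0.796 to 1.16, 37 sites), where the sites near all genes had 0.910 and 0.908. Ratios of 2 or more numbered 1 in WT, the Alpl site at +12.3 kb, and 2 in HY, that same site and Atp2a2 -16.9 kb (background 4.15% and 4.89%). Ratios of 0.5 or less numbered 5 in WT and 3 in HY (background 12.7% and 14.7%), among them Ckb -32.4 kb in both genotypes. Tags were counted here without regard to the local background, and most of these calls were lost when fold enrichment, the pileup over that background, was compared in its place. No control library is among the 4, so that background may include tags of the peak itself. None of the higher sites stayed at 2 or more, and of the lower ones 1 of 5 in WT (Ckmt2 -31.6 kb) and 0 of 3 in HY stayed at 0.5 or less, while 3 other sites reached it in HY (Ckb -19.4 kb, Alpl +24.9 kb and Alpl -48.5 kb). Where a peak was missing in one library, the smallest pileup that could have been called there was estimated from the local background. All 13 opened sites were above that limit in both genotypes after scaling for depth, but only 3 reached 2 times the limit in both, namely Gamt -21.2 kb, Gamt -15.5 kb and Atp2a2 +27.0 kb. Of the 25 closed sites, 20 were above the limit in both genotypes and 3 at 2 times the limit or more, namely Gatm +52.8 kb, Ckmt1 -41.2 kb and Slc6a8 -18.7 kb.

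Gatm encodes the mitochondrial amidinotransferase that carries out the first and committed step of creatine synthesis (chr2:122420203-122437039, minus strand). Its promoter, from 1000 bp upstream to 100 bp downstream of any TSS, had no peak in any library. Of the 15 sites in its window, 4 had a peak at D8 in WT and 5 in HY, with 7 to 13 tags. The site at -17.9 kb (chr2:122454917-122455034, intergenic) had no D0 peak and 8 tags in WT D8 and 11 in HY D8, where 7 tags would have been callable in either. Next to it the site at -19.6 kb, in an exon of Spata5l1, had 18 tags at D0 and 10 at D8 in WT and 16 and 13 in HY, so its ratio was 0.690 in WT and 1.16 in HY, with intervals that include 1. Downstream of the gene 9 sites stretched from +28.4 to +56.2 kb, of which 4 closed in both genotypes. The strongest of these, at +52.8 kb (chr2:122384150-122384345), had 17 tags in WT D0 and 19 in HY D0 with a callable limit of 5 and 4 at D8. None of the 9 downstream sites had a peak in WT D8, and 2 had one in HY D8, with 8 and 7 tags.

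Gamt encodes the methyltransferase that completes creatine (chr10:79720896-79723757, minus strand). Its promoter site at -0.2 kb (chr10:79723322-79724677) is shared with the promoter of Dazap1, an RNA-binding protein gene transcribed the other way. It had 85 tags at D0 and 60 at D8 in WT and 92 and 70 in HY, the highest D0 pileups of the 109 sites. Scaled for depth, WT gave a ratio D8 over D0 of 0.876 (0.619 to 1.23) and HY one of 1.09 (0.787 to 1.503), and both intervals include 1. The Gamt window also took in the promoters of Mum1, Ndufs7 (a complex I subunit), Rps15 and Apc2, each with a peak in all 4 libraries. A site at +0.9 kb, inside Gamt and upstream of a retained-intron transcript, had 25 tags in WT D0 and 26 in HY D0 and closed in both. The limit at D8 was 19 tags, and scaled for depth the site stood at 1.06 times that limit in WT and 0.956 times in HY, so the HY peak would not have been callable at D8.

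The strongest opened site near any of the 9 genes lay on this locus at -21.2 kb (chr10:79744649-79745147). It had no peak at D0 in either genotype and D8 pileups of 55 tags in WT and 48 in HY, where 14 and 13 tags would have been callable. Scaled for depth, that is 4.88 and 5.29 times the limit. The site is inside Dazap1, 694 bp upstream of the start of a retained-intron transcript of that gene. Its neighbour at -20.5 kb (chr10:79744153-79744368, Dazap1 intron) had 21 and 27 tags at D8. At -15.5 kb (chr10:79739036-79739375, Dazap1 intron) the D8 pileups were 28 and 23, each over 3 times the limit. At -3.8 kb (chr10:79727510-79727861), by the start of the other protein-coding Dazap1 transcripts, they were 30 and 28, but the local background there put the limit at 21 and 23. Having 4 or more sites opened in both genotypes was true of 2.10% of protein-coding genes, and Dazap1 shares these sites with Gamt.

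Slc6a8, the creatine transporter (chrX:70918489-70927841, plus strand), had no opened site in either genotype. Of its 12 sites 6 closed in both genotypes, and 4.26% of protein-coding genes had as many. At the promoter site -0.1 kb (chrX:70918161-70918674) the pileups were 17 at D0 and 10 at D8 in both genotypes, which gave ratios of 0.730 (0.299 to 1.69) and 0.842 (0.345 to 1.95). Just upstream, at -0.8 kb (chrX:70917549-70918008), 13 tags in WT D0 and 19 in HY D0 had no D8 counterpart. The D8 limit there was 8 and 7, so the loss stood 1.31 and 1.90 times above it. The site at +1.5 kb lies 699 bp past an internal start and within 1000 bp upstream of another, so it counts as a promoter site. It had 15 tags in WT D0, 10 in HY D0 and 10 in HY D8 and no peak in WT D8. Further sites at -33.1, -18.7, +9.0 (inside Slc6a8), +12.7 and +18.2 kb had between 5 and 14 tags at D0 and no peak at D8. That at +9.0 kb was below the D8 limit in both genotypes and that at +12.7 kb in WT.

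Ckb encodes the cytosolic brain-type creatine kinase, which in thermogenic fat also acts in mitochondria (chr12:112907566-112910549, minus strand). Its promoter peak (chr12:112910497-112910621) was seen in WT D0 alone, with 15 tags, and 11 would have been callable in HY D0 and 10 in WT D8. The strongest site of the locus, at -32.4 kb (chr12:112942626-112943682, intergenic), was lower at D8. It had 63 tags in WT D0 and 16 in WT D8, a ratio of 0.315 (0.170 to 0.552), and 76 in HY D0 and 20 in HY D8, a ratio of 0.377 (0.218 to 0.623). Both intervals exclude 1. The local background was lower at D8 too, so fold enrichment went from 13.6 to 7.52 in WT and from 16.05 to 11.1 in HY, ratios of 0.554 and 0.689. The site at -19.4 kb had 35 tags at D0 and 16 at D8 in WT (0.567) and 36 and 13 in HY (0.517), with intervals that reach 1.05 and 0.998. At +3.5 kb, just past the gene, 32, 22, 38 and 23 tags gave ratios of 0.853 and 0.867, and intervals that include 1. The opened site at -15.5 kb (chr12:112925952-112926171) had 13 and 9 tags at D8, 1.153 and 1.43 times the limit. Beside it the site at -15.1 kb had no peak in HY D0, 16 tags in HY D8, and 17 and 18 on the respective days in WT. The promoters of the neighbours Trmt61a (-5.6 kb, 36, 42, 30 and 28 tags) and Bag5 (-40.8 kb, 23, 29, 30 and 23 tags) had peaks throughout.

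Ckmt1, the ubiquitous mitochondrial creatine kinase (chr2:121183450-121189473, plus strand), had no promoter peak in any library at any of its 10 annotated starts. The nearest strong site, at -2.3 kb (chr2:121180540-121181339), is the promoter of Ppip5k1, an inositol phosphate kinase gene transcribed the other way, and had 37 tags at D0 and 32 at D8 in WT and 35 and 33 in HY. The opened site at -4.3 kb (chr2:121179003-121179147), in a Ppip5k1 intron, had 11 and 10 tags at D8 with a limit of 9 in both D0 libraries. The other 3 sites of the window, at -41.2, +11.5 and +39.0 kb, had 9 to 13 tags at D0 and closed in both genotypes. Ckmt2, the mitochondrial creatine kinase of muscle (chr13:91992992-92016490, minus strand), likewise had no promoter peak. Its 6 sites lay upstream, in introns of Rasgrf2, and none opened. The one kept in all 4 libraries, at -31.6 kb (chr13:92047935-92048158), had 22 tags at D0 and 8 at D8 in WT and 23 and 10 in HY, ratios of 0.451 (0.174 to 1.05) and 0.623 (0.265 to 1.36).

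Alpl encodes tissue-nonspecific alkaline phosphatase, which in thermogenic fat is the enzyme that splits phosphocreatine (chr4:137297648-137352299, minus strand). With 25 sites it had more than any other member, and 1.89% of protein-coding genes had as many. Its 8 annotated starts are spread along the gene, so its window was wider than that of a gene with 1 start, such as Atp2a2. The intronic site at +12.3 kb (chr4:137339515-137340236), 1306 bp inside an internal protein-coding start, had 17 tags at D0 and 44 at D8 in WT and 38 and 65 in HY. Both genotypes had more tags at D8. In WT the ratio D8 over D0 was 3.21 (1.799 to 5.998), and in HY it reached 2.45 (1.62 to 3.76). The local background was higher at D8 as well, by 3.01 in WT and 2.195 in HY before scaling, and fold enrichment moved little, from 8.13 to 9.67 in WT (1.19) and from 13.71 to 13.07 in HY (0.953, the other direction). HY was also above WT on each day, by 2.08 (1.147 to 3.93) at D0 and 1.59 (1.07 to 2.38) at D8, where fold enrichment gave 1.69 and 1.35. By contrast the main promoter at -0.1 kb (chr4:137352188-137352469) had 21 tags at D0 and 13 at D8 in WT and 18 and 10 in HY, ratios of 0.768 (0.354 to 1.61) and 0.796 (0.328 to 1.82).

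The 3 Alpl sites that opened in both genotypes lay within the gene. The site at +26.5 kb (chr4:137325591-137325921) had 12 tags in WT D8 and 18 in HY D8, 65 bp upstream of the start of a processed transcript with no annotated coding sequence. The site at +48.9 kb (chr4:137303305-137303469) had 13 and 9 tags, 342 bp upstream of another such transcript. The site at +2.0 kb (chr4:137350231-137350430), in the first part of the gene, had 9 and 13 tags. All 3 were between 1.6 and 2.9 times the limit. Having 3 or more such sites was true of 4.76% of protein-coding genes, and the Alpl window was a wide one. The Alpl count was 1 at -log10 q of 5 or more in every list and 5 with lists of equal length. Of the internal sites with a peak in all 4 libraries, the one at +51.6 kb was also higher at D8 in both genotypes, with 9 tags at D0 and 14 at D8 in WT and 8 and 9 in HY, though both intervals include 1. The one at +24.9 kb was lower, with 23 tags at D0 and 17 at D8 in WT (0.917) and 25 and 11 in HY (0.630).

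Of the 14 sites of the window outside Alpl, 8 of 11 with a D0 peak closed in WT and 5 of 10 in HY, next to background shares of 55.2% and 52.5%. At +66.0 kb (chr4:137285942-137286547), beyond its 3′ end, 26 tags at D0 stood against 10 at D8 in WT and 31 against 9 in HY, ratios of 0.477 (0.205 to 1.02) and 0.416 (0.174 to 0.895). At +65.5 kb 23 tags in WT D0 had no D8 peak, and 27 in HY D0 stood against 7 at D8, a ratio of 0.371 (0.136 to 0.874), and fold enrichment gave 0.515 there and 0.613 and 0.581 at +66.0 kb. Upstream at -39.7 kb, 31 tags in WT D0 stood against 11 at D8 (0.440, 0.1997 to 0.9003), and 23 in HY D0 had no D8 peak. Of the 4 sites that closed in both genotypes, with 5 to 16 tags at D0, 3 lay outside the gene and 1 inside it, at +36.7 kb.

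Atp2a2 encodes SERCA2, the pump that fills the endoplasmic reticulum with calcium (chr5:122903531-122952183, minus strand). Its promoter site (chr5:122951838-122952881) had 25 tags at D0 and 34 at D8 in WT and 38 and 24 in HY. WT was higher at D8 by 1.69 (0.978 to 2.95) and HY lower at 0.904 (0.519 to 1.55), but both intervals include 1 and the difference was not tested. A cluster of 3 sites lay about 17 kb upstream. Its middle site at -16.9 kb (chr5:122968821-122969314) had 18 tags at D0 and 24 at D8 in WT and 12 and 26 in HY, ratios of 1.65 (0.861 to 3.24) and 3.10 (1.51 to 6.75). Only the HY interval excludes 1, and fold enrichment gave 1.147 and 1.73. The flanking sites opened in both genotypes, at -16.4 kb (chr5:122968518-122968749) with 12 tags in each D8 library and at -17.3 kb (chr5:122969452-122969572) with 10 in WT D8 and 18 in HY D8. The limits at D0 were 8 and 9.

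The third opened Atp2a2 site, at +27.0 kb in an intron (chr5:122925064-122925362), had 10 and 9 tags at D8, 2.48 and 2.15 times the limit. The site at -9.6 kb (15 tags in WT D0 and 23 in HY D0) closed in both genotypes. At +0.7 kb, in the first intron, 21 tags were seen in HY D0 and no peak elsewhere, where WT D0 would have needed 10. At -24.9 kb 13 tags were seen in HY D8 alone, with a limit of 8 in WT D8. No other protein-coding gene starts within 50 kb of the Atp2a2 start. Ryr2, the cardiac ryanodine receptor (chr13:11645370-12199212, minus strand), had no promoter peak and a single site, at -18.1 kb (chr13:12217105-12217515), with 15 tags in WT D0, 17 in HY D0 and 7 in HY D8 and none in WT D8.

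**Figure D3:**
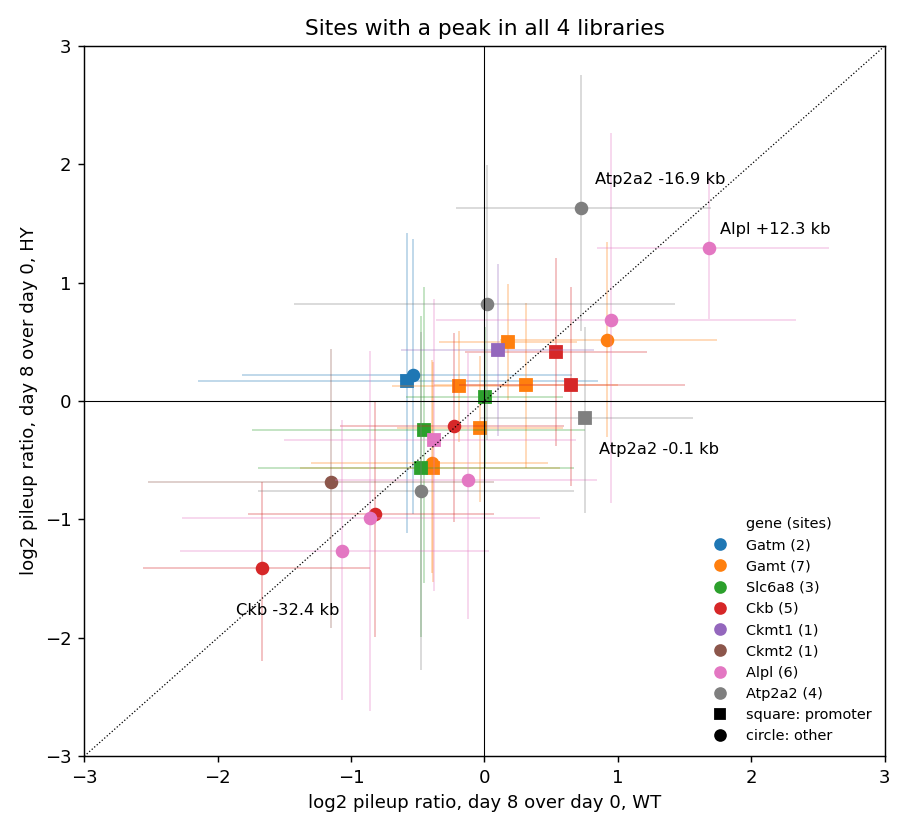
log2 of the depth-scaled pileup ratio D8 over D0 in HY (y) against WT (x) at the 29 sites with a peak in all 4 libraries, coloured by gene, with exact 95% intervals for counting error as lines and the dotted diagonal marking equal ratios. Alpl +12.3 kb is high and Ckb -32.4 kb low on both axes, and 4 sites lie in the quadrants where the genotypes have opposite signs.

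Promoter peaks did not set the 9 genes apart from other genes. They were present for 5 of 9 genes in WT D0 and for 4 of 9 in WT D8, HY D0 and HY D8, against 53.6%, 49.7%, 54.5% and 50.6% of protein-coding genes. Gamt, Slc6a8, Alpl and Atp2a2 had one in all 4 libraries, Ckb in WT D0, and Gatm, Ckmt1, Ckmt2 and Ryr2 in none. Of the 29 sites found in all 4 libraries, 14 were promoters of the members or of neighbours, and their median ratio D8 over D0 was 0.990 in WT and 1.06 in HY. The other 15 had medians of 0.761 and 0.696 and spread from 0.315 to 3.21 in WT and from 0.377 to 3.10 in HY.

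Of the other genes of these pathways, 7 partners of the phosphocreatine shuttle had a promoter peak for 5 genes in each library. Among these were Slc25a4 and Slc25a5 (the adenine nucleotide carriers that bring ATP out of mitochondria), Vdac1 (the outer membrane channel), and Ak1 (an adenylate kinase). The same 5 had a site opened in both genotypes. The strongest such site of Vdac1 had 21 tags in each D8 library. Ckm, the muscle creatine kinase, had neither. Among 20 further calcium cycling genes, promoter peaks were present for 15 at D0 and 12 at D8 in both genotypes. A site opened in both genotypes near 7 of them and closed in both near 16, where the 9 members had 6 and 8. Of all protein-coding genes, 27.9% had a site opened and 65.8% a site closed in both. Itpr2, a calcium release channel of non-muscle cells, and Camk2d, a calcium-dependent kinase, had 3 opened sites each, the strongest with 17 and 14 tags and with 13 and 20. Pln and Sln, the muscle regulators of SERCA pumps, had no promoter peak in any library, and Casq2, the cardiac calsequestrin, had one in HY D0 and 10 sites that closed in both genotypes.

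HY and WT were then compared on the same day. Of the member sites with a WT peak, 14 of 78 lacked an HY peak at D0 (17.9%, background 14.4%) and 7 of 51 at D8 (13.7%, background 12.5%). Of those with an HY peak, 12 of 76 lacked a WT peak at D0 (15.8%, background 22.6%) and 12 of 56 at D8 (21.4%, background 26.3%). The shares of WT sites moved with the threshold and the matching rule, to 5.08% at D0 with -log10 q of 5 or more asked of the WT list, to 29.3% at D0 with 50% cover and to 30.6% at D8 with that q in every list, and those of HY sites at D0 to 6.67% and 27.3% under the first pair. With -log10 q of 5 or more in every list, the share of HY sites without a WT peak at D8 was 34.2%. Within 10 kb the share of WT sites without an HY peak at D8 was 6.25%. The one-sided sites had 5 to 27 tags, where the median peak of a library had 13 to 15. Where both had a peak, the median ratio HY over WT was 0.971 at D0 (0.854 to 1.04, 64 sites) and 0.990 at D8 (0.938 to 1.11, 44 sites), against 1.06 and 1.11 near all genes. Ratios of 2 or more numbered 2 at D0 and 0 at D8 (background 1.88% and 1.54%), and those of 0.5 or less 4 at D0 and 0 at D8 (background 1.17% and 0.463%).

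The 4 lower sites at D0 were near Ckb (2), Ckmt2 and Gatm. At Ckb -9.8 kb (chr12:112920257-112920521), in an intron of Trmt61a, 43 tags in WT D0 stood against 16 in HY D0, a ratio of 0.346 (0.182 to 0.628). At -10.7 kb, 39 stood against 20 (0.478, 0.264 to 0.839), and at -9.3 kb 27 tags in WT D0 had no HY peak, with a limit of 15. At Gatm +29.5 kb 16 stood against 6 (0.349, 0.112 to 0.939), and at Ckmt2 -39.3 kb 21 against 11, with an interval that includes 1. The local background at -9.8 and -10.7 kb of Ckb was also lower in HY, by ratios of 0.521 and 0.503 before scaling for depth, and fold enrichment gave ratios of 0.650 and 0.904, so neither reached 0.5 on that measure. Of the 4 sites, Gatm +29.5 kb alone did (0.474). By D8 the sites at -9.8 and -9.3 kb of Ckb had no peak in either genotype. Chromosome 12, which carries Ckb, had the lowest median ratio of the autosomes and X on both days and was alone below 1, with 0.931 at D0 and 0.955 at D8 where the next lowest stood at 1.02 and 1.06, and its local background was lower as well, with depth-scaled median ratios of 0.884 and 0.919. The Ckb medians were 0.838 at D0 (11 sites) and 0.873 at D8 (7 sites). The part of this in the Ckb values was not tested. The higher ratios at D0 were Alpl +12.3 kb and Slc6a8 +12.7 kb, the latter from 5 and 11 tags, and on fold enrichment Slc6a8 +12.7 kb alone reached 2. The plot of HY over WT ratios sets each gene beside its chromosome.

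**Figure D4:**
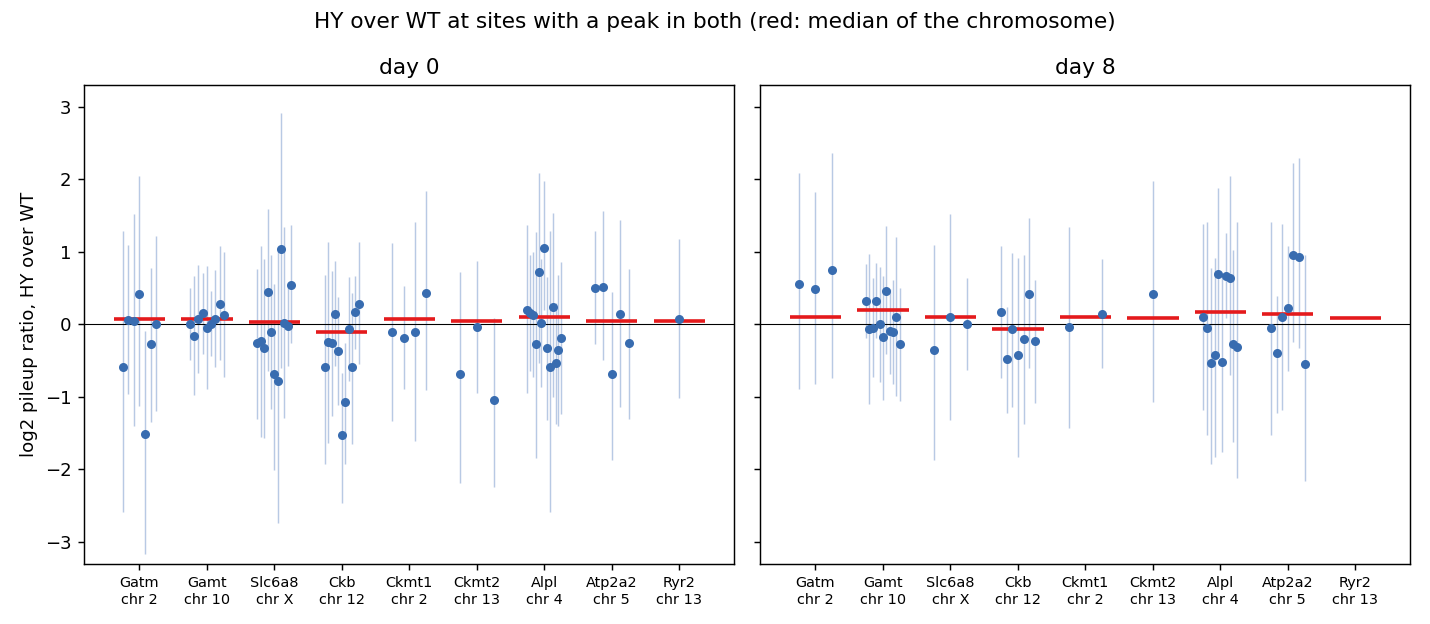
log2 of the depth-scaled pileup ratio HY over WT at D0 (left) and D8 (right), with 1 point per site that had a peak in both genotypes, grouped by gene, exact 95% intervals for counting error as lines and a red bar for the median over all sites of the chromosome. The red bar of chromosome 12 lies below 0 on both days, and most intervals include 0.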

How the data were processed

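Nuclei of 4 cultures were profiled by ATAC-seq, 1 library per group, and the authors deposited 1 narrowPeak list for each. Bowtie2, SAMtools, Picard and deepTools and the mm9 build are named in the submitters' processing notes, and the study's methods name HOMER and MACS3 for ChIP-seq peaks of different proteins and refer ATAC-seq to that procedure, so which caller made these lists is not stated. Versions, the threshold and any Tn5 offset correction are not given in the sources used here. Each list gives, as the authors deposited them, the fold enrichment of the summit over local background (a ratio), -log10 p and -log10 q. The deposited score column was not used. The lists show no read totals.

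Fold enrichment and -log10 p were solved together for the whole-number pileup and the local background of each summit, by the formula MACS uses. A solution within 0.002 was found for 100% of peaks, and for 0.9 to 1.64% after the p column of 5000 peaks was shuffled. The study gives an approximate read number per sample, but the usable total of each library is unknown. The lowest background of a list served as its relative depth. Site ratios carry exact conditional binomial intervals, and medians order-statistic intervals. The callable limit is the smallest pileup that reaches the lowest -log10 p of the list at the highest of 3 backgrounds, namely that of the genome, of the nearest peak within 10 kb and of the site itself in the other library, and it was added after the data were seen. Starts, exons and sequence came from the GENCODE annotation of NCBIM37 (mm9), whose chromosome lengths hold every peak. The distance of a site is counted from the 5′-most start. Promoters ran from 1000 bp upstream to 100 bp downstream of any start. The pathway and marker lists, the 9 members and the rules for naming sites (a peak in all 4 libraries, the same change in both genotypes, or a difference between genotypes at -log10 q of 5 or more) were chosen with earlier results of these data known. A few sites below that rule are named for their place, after their values were seen. Alternatives were other thresholds, list lengths, matching rules, windows, start sets, scalings and measures. Code was tested on simulated peaks. Python 3.11.15, SciPy 1.17.1, pandas 2.3.3 and pysam 0.24.0 were used.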

Additional observations from a re-analysis of the deposited data

Results flagged for a closer look

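Results were singled out where the D8 over D0 change pointed in opposite directions in WT and HY. With 1 library per group none of these differences could be tested. The median ratio over the member sites was below 1 in WT and above 1 in HY, and the HY value was 1.15 times the WT value. This rests on the scaling for depth, since raw pileups gave 0.717 in both genotypes, and the HY median was also below 1 with fold enrichment (0.927) and within 100 kb (0.929). Of the 29 sites with a peak in all 4 libraries, 4 had ratios on opposite sides of 1 and 25 had them on the same side, and near all genes 23.8% of 21168 such sites had opposite ones. At the Atp2a2 promoter the HY ratio was 0.536 times the WT ratio, and the opposite directions held for raw pileups as well, with 1.36 in WT and 0.632 in HY. At Gatm -19.6 kb the HY ratio was 1.69 times the WT ratio, at Gatm -26.5 kb (the promoter of AA467197) 1.68 times and at the promoter shared by Gamt and Dazap1 1.24 times. At these last 3 sites the raw pileup was lower at D8 in both genotypes, with HY ratios of 0.813, 0.786 and 0.761, so the opposite direction rests on the scaling for depth. A further 2 sites closed in WT and opened in HY. Gatm +29.8 kb had 12 tags in WT D0 and 7 in HY D8, and Alpl -12.0 kb had 6 and 5. Scaled for depth, the WT D0 peak of Alpl -12.0 kb stood at 0.967 times the limit of WT D8, so it would not have been callable there. Such sites made up 1.83% of the member sites and 0.426% of those near all genes.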

How the results depend on the processing

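Shares, medians and counts of genes kept their value in 93 of the planned comparisons. Kept means within the interval of the main value, or within 1.5 times for counts. These intervals are wide. With lists of equal length the share of D8 sites without a D0 peak was 41.2% in WT and 47.1% in HY, and counted as kept. So did 4 members with a site opened in both genotypes, at -log10 q of 5 or more in every list. The other 19 comparisons follow. With lists of equal length the share of D0 sites without a D8 peak was 37.5% in WT and 35.7% in HY, and with 50% cover it was 75.6% and 66.2%. The share of WT sites without an HY peak at D0 was 10.2% at -log10 q of 5 or more in every list, 5.08% with that threshold on the WT list alone, 29.3% with 50% cover and 9.09% within 10 kb. The converse share at D0 was 6.67% with the threshold on the HY list alone and 27.3% with 50% cover. The share of WT sites without an HY peak at D8 was 30.6% at -log10 q of 5 or more in every list. Members with a site opened in both genotypes numbered 3 with the threshold on the D8 lists alone and 3 within 10 kb. Without scaling the median D8 over D0 was 0.717 in both genotypes and that of HY over WT 1.04 at D0 and 0.921 at D8. Within 10 kb the HY median D8 over D0 was 1.21. With the median over sites in all 4 lists set to 1, HY over WT at D8 was 0.887. In the main scaling that median over all chromosomes, each library against WT D0, was 0.896 for WT D8 and 1.05 for HY D0. Quotients of 2 such medians gave 0.95 for D8 over D0 in HY and 1.12 for HY over WT at D8. The cause of these shifts was not tested. Counting 1.5-fold changes, chosen after seeing the data, gave 6 higher and 7 lower sites between the days in WT and 5 and 9 in HY, and 3 and 12 for HY over WT at D0 and 6 and 0 at D8. Fold enrichment in place of the pileup, for these counts also chosen after seeing the data, gave 0 higher and 1 lower site in WT, 0 and 3 in HY, and 1 and 1 for HY over WT at D0 and 0 and 0 at D8. Sites opened in both genotypes numbered 0 for Slc6a8, Ckmt2 and Ryr2 under the 5 alternatives tried, but ranged from 1 to 5 for Alpl, 1 to 4 for Gamt, 0 to 4 for Atp2a2 and Ckb, 0 to 2 for Ckmt1 and 0 to 1 for Gatm. At -log10 q of 5 or more in every list Gatm and Ckmt1 had 0 and Alpl and Atp2a2 1 each, and within 10 kb Gatm, Ckb and Atp2a2 had 0 and Gamt 1. No paired analysis was possible because the results come from no test and each group has 1 library, with 1 replicate number shared. The median pileup of sites opened or closed in both genotypes was 12 or 13 tags, and depth limits how far a missing peak can be told from one just under the threshold of the caller.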
